A study of Mus musculus with 6 samples.

Results

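The genes described here are 8 regulators and targets of the cellular response to low oxygen, chosen by name from a list: Hif1a, Epas1, Arnt, Egln3, Hif1an, Pdk1, Vegfa and Slc16a3. They are 8 of the 15768 protein-coding genes on the chromosomes analysed. All were found in the GRCm38.p6 gene table. Peaks were assigned to a gene when their midpoint fell in its body or within 10 kb of either end. The data were a list of 84111 regions enriched by MBD-seq, in which sonicated DNA is pulled down with MBD2, a protein that binds methylated CpG, and the captured fragments are sequenced. The DNA came from primary cultures of chondrocytes, the cells of cartilage, prepared from mouse knee articular cartilage at postnatal days 3 to 5. The 3 control cultures carried the floxed Dnmt1 allele (genotype given as Dnmt1 flox, without zygosity). The 3 conditional knockout (cKO) cultures carried Prx1-Cre and Dnmt1 flox/flox. Prx1-Cre is active in limb mesenchyme, and Dnmt1 encodes the enzyme that copies CpG methylation onto newly made DNA.

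The list gives a single set of values per peak, called on 3 merged datasets. The peak names do not say which cultures these were. No comparison of control with cKO and no spread between animals could therefore be given, and the sequencing depth of each culture is unknown. The title of the deposited list ties its regions to Dnmt1, but no value in it shows a direction of change. The labelled cell type could not be checked against marker genes, because DNA enrichment carries no expression levels.

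Cells sense oxygen through the hypoxia-inducible factors (HIFs). Their alpha subunits, HIF-1 alpha (Hif1a) and HIF-2 alpha (Epas1), pair with ARNT and bind short DNA elements near target genes. In oxygen, prolyl hydroxylases such as EGLN3 mark the alpha subunits for destruction, and the asparaginyl hydroxylase encoded by Hif1an blocks their coactivator contact. Cartilage has no blood vessels, and growth plate chondrocytes depend on HIF-1 alpha for survival and for glycolytic metabolism. The core of the HIF-binding element contains a CpG, and methylation of that CpG is known to hinder HIF binding.

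Every one of the 8 genes held at least 1 peak in its body, where 64.7% of protein-coding genes did, and 81.7% of them had a peak in the body or within 10 kb. The 8 genes are mostly longer than usual, with a median length of 27.8 kb against 18.6 kb, and longer genes hold more peaks. Among protein-coding genes of similar length, the share with a body peak ran from 59.9% for Slc16a3 to 89.4% for Epas1. The 8 genes were chosen with earlier results of these data known. How far that choice shaped the count of 8 was not tested. In all, 36 peaks were assigned, 26 in gene bodies and 10 in flanks. Epas1 alone held 14 of them and Pdk1 held 5. Arnt and Slc16a3 had 4 each, Egln3 had 3, and Hif1a, Hif1an and Vegfa had 2 each. The peaks were near the list as a whole in fold and mostly narrower. Their median fold enrichment, the height of the peak relative to the caller's background, was 11.7 (range 5.97 to 47.3) against 13.2 over all peaks. Their median width was 298 bp (range 58 to 794 bp) against 415 bp. Under the median of the list lay 19 of the 36 peaks in fold and 25 in width. Without Epas1 the median fold of the other 22 peaks was 14.4, which lies above that of the list.

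**Figure D1:**
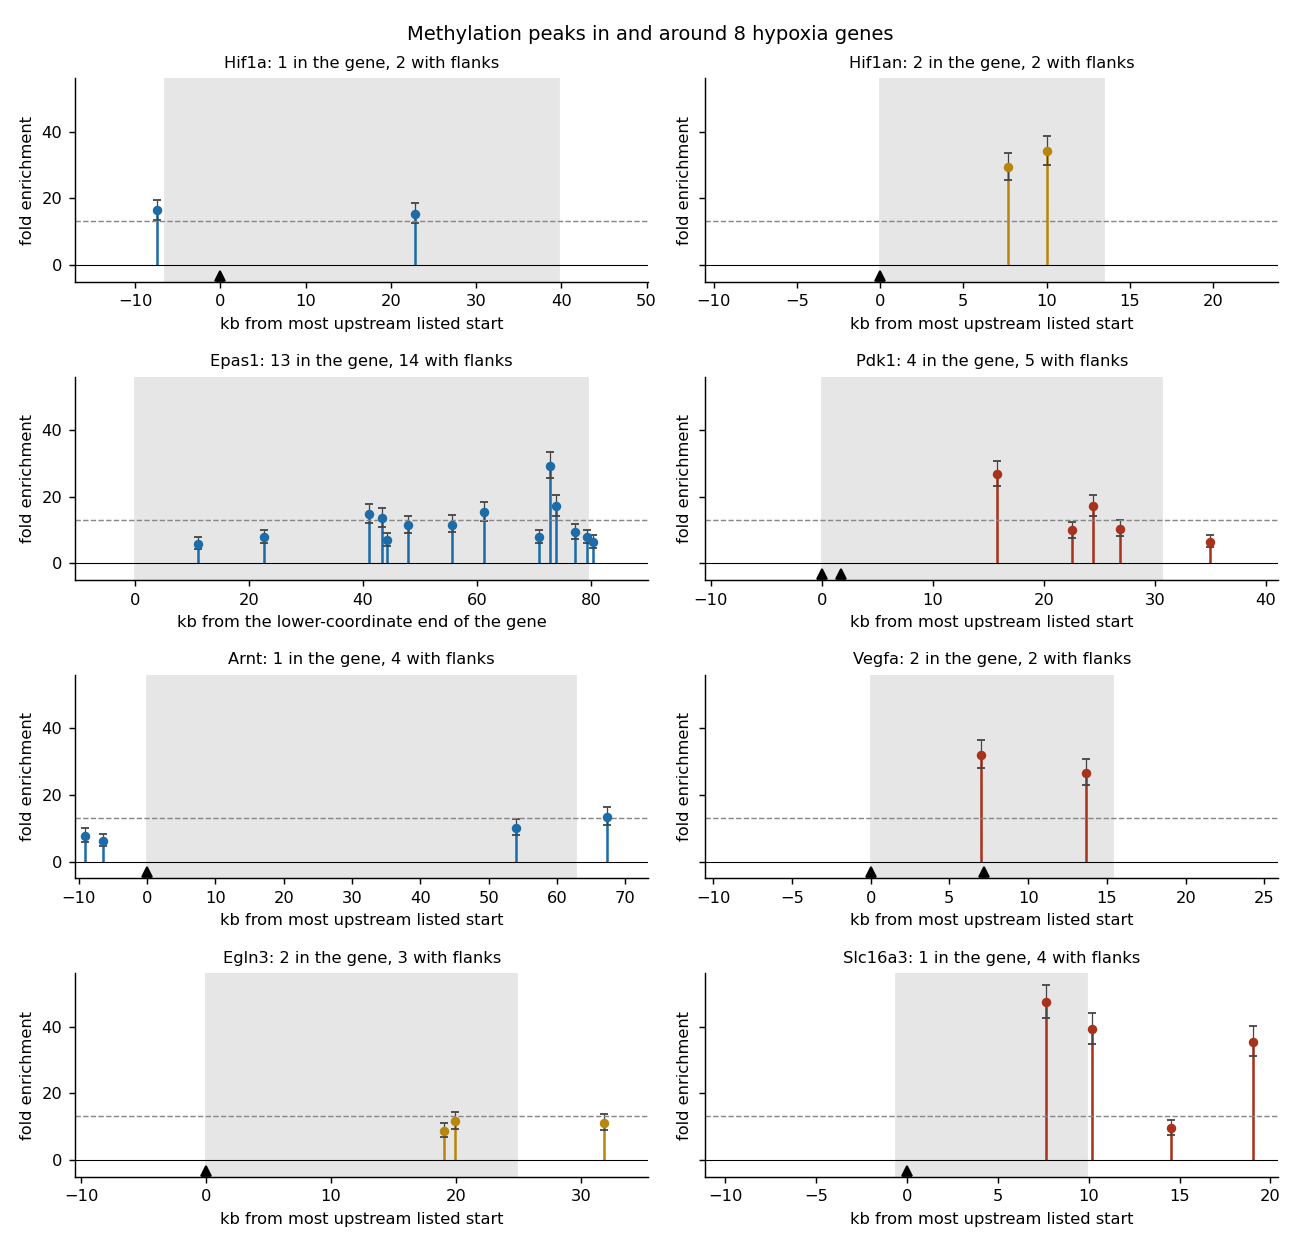
Fold enrichment of each peak (y axis, linear) by its distance in kb from the most upstream listed start of the gene (x axis), or for Epas1 from the end of lower coordinates. Grey bands are gene bodies, black triangles are listed starts, vertical bars are 95% counting intervals, the dashed line is the median fold of all 84111 peaks, and blue, gold and red mark HIF subunits, hydroxylases and targets. Epas1 carries 13 body peaks, Slc16a3 has the highest peak at 47.3, and a peak lies beside a start at the inner start of Vegfa only.

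The read depth behind each of these peaks could be recovered. MACS2, a peak caller named in the submitters' processing notes, sets the fold to the pileup plus 1 over the background plus 1. Solving this together with the deposited p-value gave whole-number pileups for 36 of 36 peaks. All 36 stood on the same lowest background, 6.37 reads, as did 83.9% of the peaks in or within 10 kb of protein-coding genes and 74.98% of the whole list. Folds of the 36 peaks thus rank them by pileup alone. Pileups ran from 43 to 348 reads with a median of 85.5. That is below the median of 127 over all peaks. It is also below the 115 of peaks in or within 10 kb of protein-coding genes. Exact Poisson intervals (95%) are given for pileups below and cover counting error only.

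The starts of the genes were examined first, since promoter methylation is the form most often linked to silencing. Start positions were listed in RefSeq (GRCm38.p6) for 7 of the 8 genes; Epas1 had no entry. None of the 7 had a peak midpoint within 1 kb of its most upstream start. Vegfa had a peak at a second start inside the gene, which made 1 of 7 genes, where 7.81% of protein-coding genes had a peak within 1 kb of a listed start. The nearest peak to the most upstream start lay 6.38 kb away in Arnt, 7.03 kb in Vegfa, 7.45 kb in Hif1a, 7.64 kb in Slc16a3 and 7.66 kb in Hif1an. In Pdk1 and Egln3 it lay farther off, at 15.7 and 19.0 kb. The median over 12546 protein-coding genes was 8.34 kb, so 5 members lay nearer than the median gene and 2 beyond it.

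Placing peaks by the ends of the gene model gave another count. By that measure 3 of the 8 genes had a peak within 1 kb of an end, against 21.8% of protein-coding genes. The Hif1a peak at chr12:73900234-73900606 lies 0.904 kb before the left end of the gene model, but 7.45 kb before the listed start, which is 6.54 kb inside that model. The Slc16a3 peak at chr11:120958944-120959514 lies at the far end of the gene, 10.2 kb past its start, and inside the model of its neighbour Csnk1d. The third gene is Epas1, with a peak of fold 7.87 just inside its end of higher coordinates (chr17:86833099-86833321) and one of fold 6.38 just beyond it (chr17:86834130-86834210).

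The 250 bases before 5 of these starts are printed here in lower case, with capitals at the 5-base cores ACGTG or GCGTG on either strand, the core of the HIF-binding element. They contrast the window that a peak covered, at the inner start of Vegfa, with 4 CpG-containing windows that no peak touched.
Hif1a, chr12:73907617-73907866, plus strand: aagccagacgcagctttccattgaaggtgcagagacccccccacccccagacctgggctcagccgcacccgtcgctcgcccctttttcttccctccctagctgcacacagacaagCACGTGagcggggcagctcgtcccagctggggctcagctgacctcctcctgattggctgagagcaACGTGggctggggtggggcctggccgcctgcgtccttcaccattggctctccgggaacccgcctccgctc
Slc16a3, chr11:120948817-120949066, plus strand: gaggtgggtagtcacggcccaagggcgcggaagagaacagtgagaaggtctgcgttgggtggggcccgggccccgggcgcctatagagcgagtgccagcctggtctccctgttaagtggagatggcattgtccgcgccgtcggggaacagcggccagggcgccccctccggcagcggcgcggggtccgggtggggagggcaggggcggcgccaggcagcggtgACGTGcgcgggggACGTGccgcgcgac
Pdk1, chr2:71872974-71873223, plus strand: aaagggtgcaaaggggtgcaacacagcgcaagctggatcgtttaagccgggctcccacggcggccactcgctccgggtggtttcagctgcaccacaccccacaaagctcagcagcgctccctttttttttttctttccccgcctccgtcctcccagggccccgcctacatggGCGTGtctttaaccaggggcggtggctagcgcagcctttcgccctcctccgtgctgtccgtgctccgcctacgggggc
Vegfa upstream start, chr17:46032378-46032627, minus strand: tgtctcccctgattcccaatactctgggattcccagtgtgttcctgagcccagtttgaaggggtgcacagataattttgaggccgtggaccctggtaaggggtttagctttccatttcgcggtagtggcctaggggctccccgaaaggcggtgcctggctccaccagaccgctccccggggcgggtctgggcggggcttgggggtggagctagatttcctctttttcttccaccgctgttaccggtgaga
Vegfa inner start, chr17:46025164-46025413, minus strand: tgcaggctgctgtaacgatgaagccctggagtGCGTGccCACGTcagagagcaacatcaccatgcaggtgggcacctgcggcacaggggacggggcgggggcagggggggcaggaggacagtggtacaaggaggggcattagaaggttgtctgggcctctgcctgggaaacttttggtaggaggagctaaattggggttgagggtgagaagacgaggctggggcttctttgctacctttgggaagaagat
The Slc16a3 window was the richest in CpG of those listed for the 7 genes, with 29 CpG sites and an observed over expected CpG ratio of 0.909. It held ACGTG at 2 sites near its start, and no peak overlapped it. The Hif1a window held 14 CpG sites and ACGTG at 2 sites, of which 1 is part of the palindrome CACGTG and was counted as a single site. Pdk1 had 19 CpG sites and GCGTG at 1 site, while the upstream Vegfa window had 11 CpG sites and neither core. The inner Vegfa window had 7 CpG sites, a ratio of 0.365, and both cores at 1 site each. This inner start lies 7.21 kb inside the gene model. Whether its window acts as a promoter or lies in an exon was not examined. The capitals mark sequence matches only, and HIF binding was not measured.

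All 250 bases of the inner Vegfa window lay within the peak at chr17:46025043-46025643. This peak had a pileup of 236 reads (207 to 268) and a fold of 32.2. Of the 9 start windows of the 7 genes it was the only window that a peak overlapped. Over all protein-coding genes, 2.62% of 15400 such windows were overlapped by a peak, and 3.04% of genes had an overlapped window. The cores themselves are common. ACGTG occurred in 18.2% of the 15400 windows, GCGTG in 35.0%, either of them in 45.4% and CACGTG in 6.80%. A window without a peak may still hold methylated CpG too sparse to reach the list, whose lowest −log10 q was 20.004. Windows with a core were overlapped by a peak in 2.73% of cases and windows without one in 2.53%.

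**Figure D2:**
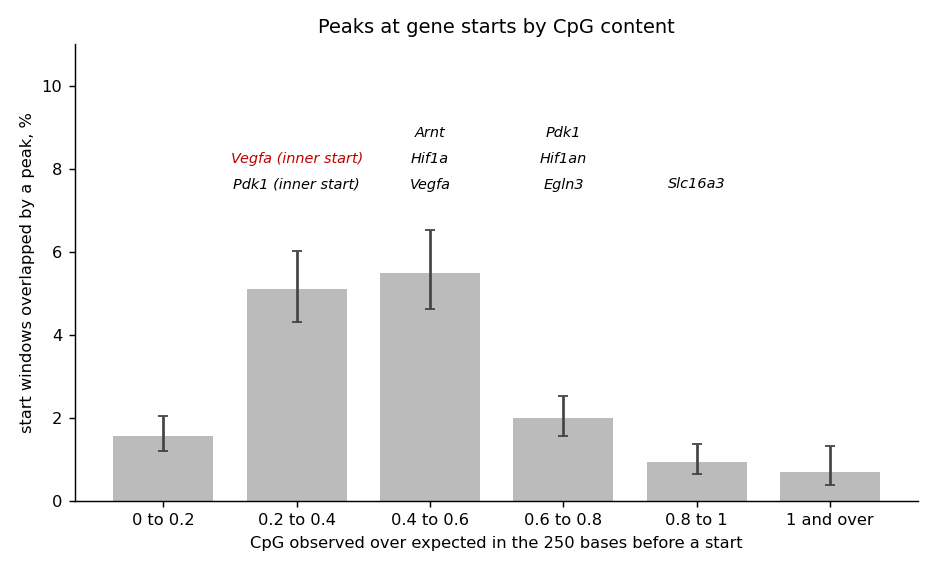
Share of start windows overlapped by a peak (y axis, %) for 15400 windows of 250 bases before starts of protein-coding genes, by observed over expected CpG ratio (x axis); error bars are 95% Wilson intervals over windows. Names above the bars place the windows of the 7 genes, with the overlapped one in red. The share was 5.09% for ratios of 0.2 to 0.4, the range that holds the overlapped inner Vegfa window. It was 5.49% for ratios of 0.4 to 0.6 and 0.942% for 0.8 to 1, the range that holds Slc16a3.

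The HIF subunit genes differed widely in how many peaks they held. Hif1a (gene 15251, chr12:73901324-73947554, 46.2 kb) had 1 peak in its body, at chr12:73930592-73930913. It lay 22.9 kb past the listed start with a fold of 15.5 and a pileup of 113 reads (93.1 to 136). The upstream peak already described had a fold of 16.4 and a pileup of 120 reads (99.5 to 143). The intervals of the 2 peaks overlap, so their heights could not be told apart. Protein-coding genes within 20% of the length of Hif1a had a median of 3 body peaks (1412 genes), and 65.9% of them had more than Hif1a. The highest fold at Hif1a also lay low among such genes, since 20.9% of those with a peak had a lower maximum.

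Arnt, the common partner of the alpha subunits (gene 11863, chr3:95434367-95497240, 62.9 kb), likewise had 1 body peak. It lay at chr3:95488223-95488488, 54.0 kb past the start, with a fold of 10.2 and a pileup of 74 reads (58.1 to 92.9). Of 1198 genes of similar length, 71.6% held more body peaks, with a median of 3. Before the gene stood a peak of fold 7.87 (57 reads, 43.2 to 73.9) and one of fold 6.24 (45 reads, 32.8 to 60.2), at 9.04 and 6.38 kb from the start. The latter falls in the gene model Gm4349. The highest peak assigned to Arnt, of fold 13.4 (98 reads, 79.6 to 119), lies past the gene inside Ctsk, which encodes the protease cathepsin K. With the flanks counted, Arnt had 4 peaks, equal to the median of its length class.

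Epas1, which encodes HIF-2 alpha (gene 13819, chr17:86753864-86833410, 79.5 kb), stood at the other extreme with 13 body peaks and 1 more in a flank. The density of 16.3 body peaks per 100 kb was the highest of the 8 genes, against 5.69 for protein-coding genes together. Of 1072 genes of similar length 92.5% held fewer body peaks, and their median was 4. Of the 14 Epas1 peaks, 7 had a fold under 10, and 3 had the same pileup of 57 reads (43.2 to 73.9). The lowest, at chr17:86764968-86765025, was 58 bp wide with a fold of 5.97 and 43 reads (31.1 to 57.9). Its −log10 q of 20.004 equals the lowest in the whole list.

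The Epas1 peaks were spread unevenly. Between its midpoint and its end of lower coordinates the gene held 2 body peaks, and on the other side of the midpoint 11. The end of higher coordinates had 6 peaks within 10 kb, and the end of lower coordinates had 0. The highest peak of the gene was among these 6, at chr17:86826381-86826884, with a fold of 29.3 and a pileup of 215 reads (187 to 246). Its neighbour 0.657 kb further on had a fold of 17.2 and 126 reads (105 to 150), and the intervals of these 2 do not overlap. The median gap between neighbouring Epas1 peaks was 2.79 kb and the largest was 18.1 kb. Although it held many peaks, the highest fold at Epas1 was ordinary for its length, exceeding that of 51.7% of similar genes with a peak.

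**Figure D3:**
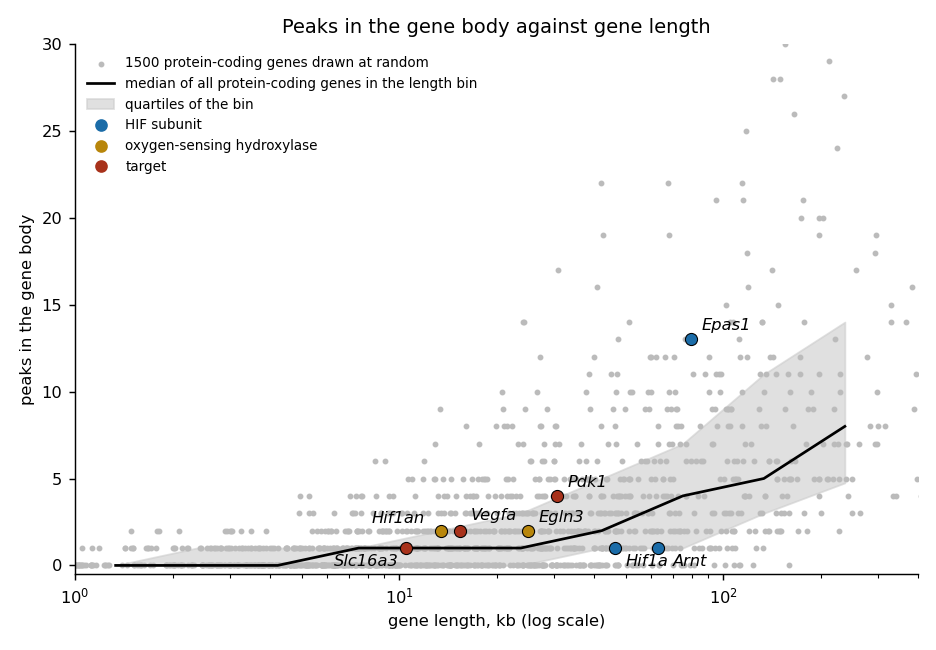
Number of peaks in the gene body (y axis) against gene length in kb (x axis, log scale) for the 8 genes, for 1500 protein-coding genes drawn at random (grey points; genes outside the axis ranges are not shown), and as the median and quartiles of all protein-coding genes in length bins (line and band). Epas1, with 13, lies above the quartile band, while Hif1a and Arnt lie below the median line with 1 each.

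The 2 hydroxylase genes contrasted in peak height. Egln3, a prolyl hydroxylase gene that HIF itself induces (gene 112407, chr12:54178981-54203874, minus strand), had body peaks of fold 11.8 (86 reads, 68.8 to 106) and 8.82 (64 reads, 49.3 to 81.7). They lie 19.9 and 19.0 kb past the start. Another, of fold 11.3 (82 reads, 65.2 to 102), lies 6.999 kb beyond the end of the gene. The intervals of all 3 overlap, and every peak of Egln3 was below the median fold of the list. That held for 1 of the 8 genes, and the share of protein-coding genes for which it holds was not computed. Hif1an, which encodes the asparaginyl hydroxylase FIH (gene 319594, chr19:44562854-44576274), had 2 peaks in a body of 13.4 kb. Their folds were 29.4 at chr19:44570278-44570743 (216 reads, 188 to 247) and 34.2 at chr19:44572643-44573173 (251 reads, 221 to 284). Both Hif1an peaks lay above every Egln3 peak, and the intervals of the 2 genes do not meet. The highest Hif1an fold exceeded the maximum of 71.1% of genes of similar length with a peak, and that of Egln3 exceeded 13.9%. In number both genes had 2 body peaks where genes of their length had a median of 1.

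Of the 11 peaks assigned to the 3 target genes, 6 had a fold of at least 20, and 2 of these 6 lie inside a neighbouring gene. It was 2 of 5 at the hydroxylase genes, 1 of 20 at the HIF subunit genes, where 14 of the 20 belong to Epas1, and 28.9% of the list. The median fold was 26.7 at the target genes, 11.8 at the hydroxylase genes and 10.8 at the subunit genes. By gene it was 37.4 at Slc16a3, 29.4 at Vegfa and 10.4 at Pdk1. It was 31.8 at Hif1an and 11.3 at Egln3, and 15.9 at Hif1a, 10.4 at Epas1 and 9.02 at Arnt. Peaks of 1 gene are not independent, so these medians describe the 8 genes and not their roles. Slc16a3, which encodes the lactate exporter MCT4 (gene 80879, chr11:120948484-120959000), held the highest peak of the 36. Its single body peak, at chr11:120956310-120957103, was 794 bp wide with a fold of 47.3 and a pileup of 348 reads (312 to 387). It lay 7.64 kb past the start, and 99.6% of all peaks in the list had a lower fold. Among genes of similar length with a peak, 97.5% had a lower maximum fold. The peak at the far end of the gene had a fold of 39.3 (289 reads, 257 to 324). A peak 4.62 kb beyond the end had 9.50 (69 reads, 53.7 to 87.3), and another 9.08 kb beyond it 35.5 (261 reads, 230 to 295). These 3 flank peaks all lie inside Csnk1d, a casein kinase gene, so they cannot be assigned to Slc16a3 alone.

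Vegfa encodes the growth factor that draws vessels into the growth plate (gene 22339, chr17:46016993-46032377, minus strand). Besides the peak at its inner start it had 1 other, at chr17:46018421-46018946, with a fold of 26.7 and 196 reads (170 to 225). The latter lies 13.7 kb past the upstream start. The intervals of both Vegfa peaks overlap. Vegfa and Hif1an, with 2 peaks each, were the 2 of 8 genes of which every peak had a fold of at least 20. In the list 28.9% of peaks reached that fold, and the share of such genes among all protein-coding genes was not computed. Pdk1 encodes a kinase that holds back pyruvate dehydrogenase and so limits the entry of carbon into the TCA cycle (gene 228026, chr2:71873215-71903858). It had 4 body peaks where genes of its length had a median of 2, and 71.8% of those genes had fewer. The tallest, at chr2:71888758-71889185, had a fold of 26.7 (196 reads, 170 to 225). The next had 17.2 (126 reads, 105 to 150), and the remaining body peaks had 10.4 (76 reads) and 9.90 (72 reads). A narrow peak of 99 bp lay 4.32 kb past the gene, with a fold of 6.51 (47 reads, 34.5 to 62.5).

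Set beside genes of similar length, 5 of the 8 genes held more body peaks than the median: Epas1, Pdk1, Egln3, Hif1an and Vegfa. Only Epas1 lay above the upper quartile of genes of its length. Of genes of similar length, 50.6% held fewer body peaks than Egln3, 59.3% fewer than Hif1an and 57.6% fewer than Vegfa. The share of all protein-coding genes above the median of their own length was not computed, so no excess is shown. Slc16a3 equalled its median of 1, and Hif1a and Arnt fell short. With the 10 kb flanks, 3 of the 8 exceeded the median, namely Epas1, Pdk1 and Slc16a3. Peaks just inside the 10 kb limit were those of Slc16a3 at 9.08 kb and Arnt at 9.02 kb. Just outside it were a peak of fold 22.4 at 10.1 kb from Slc16a3 and one of fold 18.04 at 10.6 kb from Pdk1.

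Within the genes, the peaks lay toward the far end. In the 7 genes with a listed start, 12 of 13 body peaks (92.3%) were beyond the midpoint of the gene model, counted from its upstream end. Over protein-coding genes with a listed start it was 61.8% of 35568 body peaks. No body peak of the 7 genes lay in the first 40% of the model, and the nearest to the upstream end was the inner-start peak of Vegfa at 45.7%. Peaks of the same gene are neighbours and not independent, so this is a description of 7 genes. In the flanks of these 7 genes, 6 peaks lay beyond the far end and 3 before the start. The same split over all protein-coding genes was not computed. Of the 6, the 3 at Slc16a3 lie inside Csnk1d and that of Arnt inside Ctsk. Of the 3 before the start, the nearer one at Arnt lies in Gm4349.

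**Figure D4:**
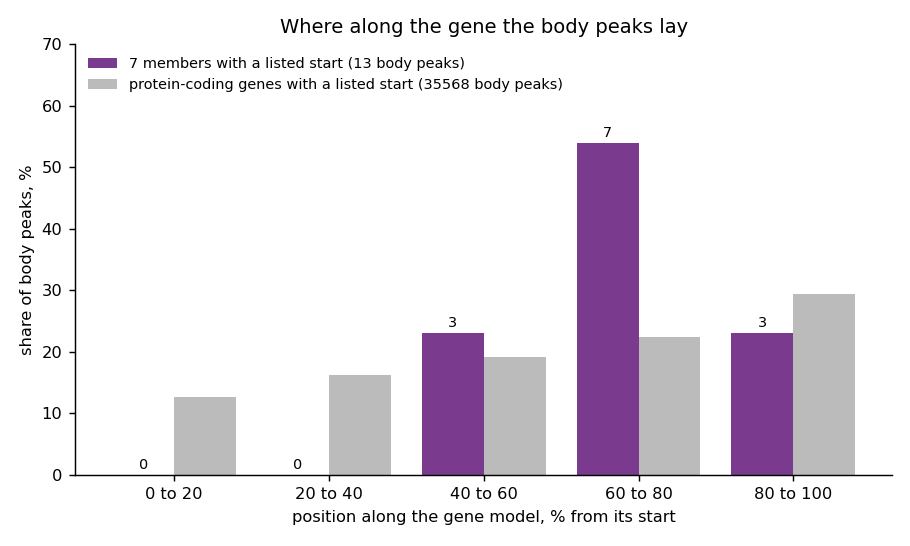
Share of body peaks (y axis, %) in 5 equal sections of the gene model from its upstream end (x axis, %) for the 7 members with a listed start (purple, number of peaks above each bar) and for protein-coding genes with a listed start (grey). The members' 13 peaks fall as 3, 7 and 3 in the last 3 sections, while the grey bars climb from 12.6% to 29.5%.

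The wider pathway was followed with 7 lists of 76 further genes, of which 50 lay on the sequence analysed. Egln1, Egln2, Vhl, Ldha and Pgk1 are among those not analysed here. A body peak was found in 36 of the 50 genes (72.0%), not far from the 64.7% of all protein-coding genes. A peak in the body or within 10 kb was found in 46 (92.0% against 81.7%). The median fold of their 254 peaks was 14.4. Over the target lists it ran from 12.8 at angiogenic and secreted targets to 18.4 at stress and pH targets. It was 13.9 at the genes that sense oxygen or turn HIF over, and 9.22 at HIF partners. Genes named below for their number of body peaks were picked as the highest of their list. Their counts above genes of similar length follow largely from that choice and do not describe the other genes of the list. Among glycolytic targets 9 of 10 genes had a body peak, led by Hk1, the hexokinase 1 gene, with 23 peaks where genes of its length had a median of 4. All 7 genes for collagen processing had one, led by Plod1, a lysyl hydroxylase gene, with 8 against a median of 2. Among angiogenic and secreted factors it was 8 of 10, led by the VEGF receptor gene Flt1 with 26 against 6. The lists differed in median gene length, and their shares were not adjusted for it. The median was 30.7 kb for collagen processing, 25.7 kb for glycolytic targets and 10.7 kb for angiogenic and secreted factors. It was 17.5 kb for oxygen sensing and HIF turnover and 32.1 kb for stress and pH targets, against 18.6 kb for protein-coding genes.

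Of the 7 genes that sense oxygen or turn HIF over, 3 had a body peak and 6 had a peak in the body or within 10 kb (85.7%). Os9, which encodes a lectin of the endoplasmic reticulum, held 11 peaks in this list, where the median for its length was 2. Mitochondrial and mitophagy targets had a body peak in 4 of 7 genes, led by Mxi1, a MYC antagonist gene, with 13 against a median of 3. Stress and pH targets had one in 3 of 6. HIF partners had one in 2 of 3, led by Ep300, which encodes the coactivator p300, with 3. Within 1 kb of a listed start, 1 of 38 genes had a peak, against 7.81% of protein-coding genes. This was Aldoc, an aldolase gene, with a peak of fold 20.1 at chr11:78324945-78325416.

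**Figure D5:**
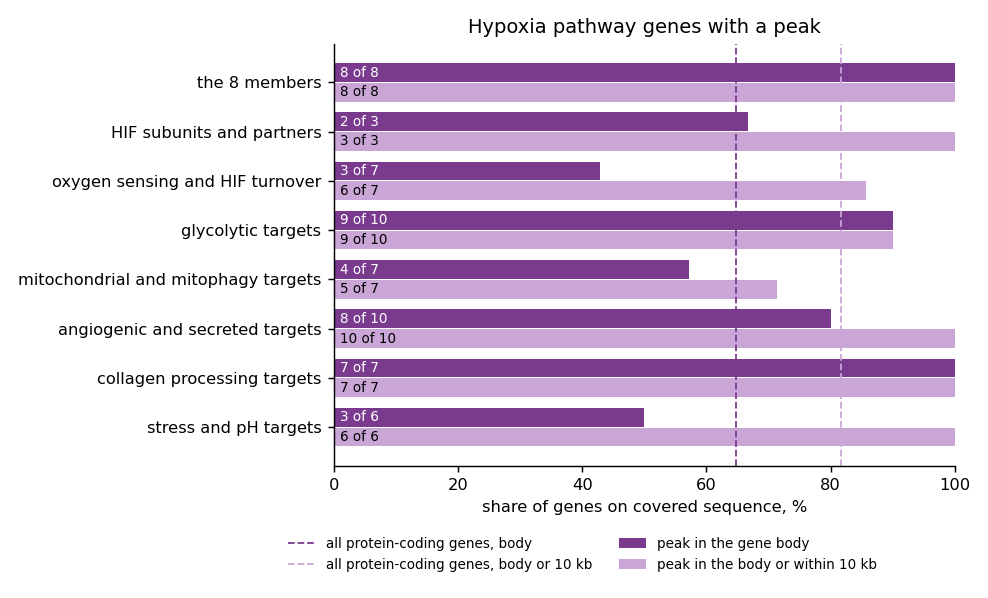
Share of genes on covered sequence (x axis, %) with a peak in the body (dark bars) or in the body or within 10 kb (light bars) for the 8 members and 7 wider lists; numbers on the bars give genes with a peak of genes covered, and dashed lines the shares over all protein-coding genes, 64.7% and 81.7%. Glycolytic and collagen processing genes had body peaks in 9 of 10 and 7 of 7, and oxygen-sensing genes in 3 of 7 (6 of 7 with the flanks).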

How the data were processed

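Fold enrichment (a ratio to the caller's background), −log10 p, −log10 q, a score (10 times the −log10 q, rounded down), and positions were taken from the deposited peak list, which follows the narrowPeak layout. Per the submitters' processing notes, fastp, Bowtie2 and MACS2 and the build mm10 (GRCm38) were used; their settings are not given in the sources used here. Per the peak names, 3 datasets were merged before calling. Chromosomes 7, 8, 9, X, Y and the rest of 6 were not analysed here; 1 incomplete line was left out.

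Genes and starts came from RefSeq (GRCm38.p6); 79.6% of protein-coding genes had a listed start. Genes in the first 3 Mb of a chromosome were left out. File starts, counted from 0, are printed counted from 1. Exons and introns were not analysed here. MBD2 capture rises with the number of methylated CpG sites in a fragment, so peak height also reflects CpG density. A pileup counted as whole within 1% of the step between neighbouring whole pileups. Peak counting and pileup recovery were tested on simulated data (100% of 200 genes and of 5000 peaks recovered). The simulated peaks were made with the formula that the recovery inverts, so this checks the calculation only. In the list itself a whole pileup was found for 99.97% of 84111 peaks. No test was run, as no value belongs to a sample. The members, lists and choices were made with earlier results of these data known. Named genes were all members, list genes whose start (either end where none was listed) had a peak midpoint no more than 1 kb away, and the gene with most body peaks per list; 1 such gene is not reported here. Python 3.11.15, pandas 2.3.3 and SciPy 1.17.1 were used.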

Additional observations from a re-analysis of the deposited data

How the results depend on the processing

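No paired analysis was possible because peaks carry 1 merged value each and none per culture; for the same reason no replicate was left out and the planned test on counts was not run. Of 62 recomputed values, 40 stayed equal or, for counts, within 1.5 times. A −log10 q of at least 50 left 17 body peaks and 22 peaks with flanks, with a median fold of 16.8 and width of 410 bp. At least 100 left 9 and 12 peaks, 29.4 and 528 bp, and 5 genes with a body peak. Peaks at or above the median fold of the list gave 13 and 17 peaks, 26.7 and 475 bp. These filters remove low peaks by construction. The median fold was 11.8 with any overlap of 1 bp, 12.6 with a flank of 5 kb and 13.5 with 20 kb. Alternatives chosen after seeing the data gave 12.7 for body peaks alone and 14.4 without Epas1, which left 22 peaks. Start peaks (within 1 kb) were found at 0 of the genes with the most upstream start alone and at 3 with either end of the gene model. Against all genes of the table, 5 of the 8 genes, not 3, had more peaks with flanks than the median gene of their length.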
